A study of Vitis vinifera with 74 samples.

Results

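In swelling grapevine buds sprayed with water, 532 genes were far below their starting level at 72 h. The 26 genes described here, of 42413 in the tables, are those among the 532 that were at least 2-fold higher at both 48 and 72 h in buds sprayed with abscisic acid (ABA) and that met limits at 24 h. They were chosen by measured values. CPM is a gene's count scaled to a common library total, and differences are log2 ratios of group mean CPM with 1 CPM added to each mean. A member had a log2 difference of -1.5 or lower between control buds at 72 h and pre-treatment buds, and of 1 or higher between ABA and control buds at 48 h and again at 72 h. It also had an ABA difference under 2 in buds at 24 h and under 0.5 in leaves at 24 h. The values behind these limits are therefore descriptions and carry no test.

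ABA is a plant hormone of water shortage, cold and dormancy. It is known to hold buds in a resting state and to induce protective proteins and sugars, and its level in buds declines as dormancy is released. During deacclimation buds lose their cold hardiness as they take up growth again, and many transcripts made in the hardy state are lost on the way.

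All plant material was the Vitis vinifera cultivar Cabernet Franc. Dormant canes of field-grown vines, cut to single nodes after winter chilling, stood with their cut ends in water under warm growing conditions. At the woolly bud stage they were sprayed with deionized water (control) or with S-ABA at 1322 mg per litre (5 mM), and buds were taken before treatment and 6, 12, 24, 48 and 72 h later. All bud groups thus came from buds that were already swelling when ABA was given. In the second experiment, leaves of potted 2-year-old greenhouse vines were sprayed with S-ABA at 500 mg per litre (1.9 mM) plus a surfactant, or with the surfactant solution lacking ABA (control), and taken before treatment (8 libraries) and at 2, 4, 24 and 48 h (4 libraries for each treatment and time). The labels do not say how many buds or leaves went into a library, nor which vine they came from.

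Counts came from short tags at the 3′ ends of transcripts, so levels were not divided by gene length. Leaf libraries held 1321798 to 2414909 counts. The bud table has 3 columns for each group (4 for the 48 h controls), of 1526985 to 2616086 counts each. Columns of the same bud group were nearly as alike as counting noise allows: chi-square over its degrees of freedom was 1.02 to 1.17 in 30 pairs, against 3.85 to 25.4 for leaf libraries of a group. The 4 columns of the 48 h controls differed somewhat more, at 1.34 to 2.00. By the labels a library was run in triplicate on the sequencer, so each bud group was counted as 1 sample, of 4923240 to 7698363 counts. ABA and control buds at a single time thus have no replicate check, and the spread between bud columns is mostly that of counting, with the 48 h controls as the exception. Counting intervals leave out that extra spread. Since these are bulk samples, fewer cells of a type and less RNA per cell cannot be told apart.

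The identifiers could not be paired with gene names, so no role is given for any member. The members are numbered from 1 to 26 by falling level in pre-treatment buds, and 4 are named by a rule. Vitvi03g00568 (number 1) had the highest starting level. Vitvi11g00231 (number 3) had the largest ABA difference held at both 48 and 72 h. Vitvi01g01979 (number 2) and Vitvi12g02456 (number 7) had the lowest log2 differences of the 72 h control from the start, with 1 CPM added, among the members at 5 CPM or more before treatment. Across the 26 members the starting level ranged from 2.40 to 190.2 CPM, with 5 under 5 CPM. Their identifiers carry 17 different prefixes, with at most 3 members on any of them.

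Of the 42413 genes, 15286 started high enough (1.83 CPM) to be able to reach the control limit, and 532 of these, or 3.48%, did. At 48 h 51 of the 532 were at least 2-fold higher with ABA, and 38 were so at 72 h too. The limits at 24 h in buds and in leaves took this to 30 and then 26, which is 4.89% of the lowered genes. The 48 h limit removed most genes: 224 of the 532 (42.1%) were at least 2-fold higher with ABA at 72 h, and 51 (9.59%) at 48 h. Genes just inside and just outside the limits lay at -1.51 and -1.49 for the 72 h controls, 1.02 and 0.95 for ABA at 48 h, and 1.11 and 0.94 for ABA at 72 h. For ABA at 24 h the edges were 1.79 and 2.12 in buds and 0.50 and 0.72 in leaves. The 48 h limit alone kept out 173 genes and the control limit alone 197, so many genes missed the list by a single limit. The list is also set by the 1 CPM added to each mean: with 5 CPM added the rule found 7 genes, and with 0.5 CPM 45.

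In control buds the members were lowest late in the course. Their median log2 difference from pre-treatment was -0.64, -0.43, -0.84, -1.48 and -1.97 at 6, 12, 24, 48 and 72 h. All 26 had their lowest control level at 72 h. The number below the start was 20, 18, 25 and 26 at the 4 earlier times. At 24 h 9 of the 26 were at least 2-fold below the start (3.97% of all 15286 genes) and 0 were 2-fold above it (3.58%). At 48 h these counts were 23 (3.24%) and 0 (7.42%). The other 506 lowered genes followed a similar course, with medians of -0.56, -1.01 and -1.78 at 24, 48 and 72 h. The pre-treatment and 72 h control libraries chose all of these genes, and the 24 and 48 h controls also entered the choice of the members. The falls from the start thus follow in part from the choice, and nothing more is read from these counts.

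With ABA most members were within 2-fold of their starting level at 48 and 72 h, as were most of all 15286 genes. At 12 h most genes were still within 2-fold of it, but most members were not. The median log2 difference of ABA buds from pre-treatment was 0.17, -0.59, -0.14, 0.25 and -0.34 at the same 5 times. At 12 h 10 of the 26 were within 2-fold of the start, 8 were more than 2-fold above it (10.5% of all genes) and 8 more than 2-fold below it (21.8%). At 48 h 20 were within 2-fold of the start. At that time 16 of 26 were above the start, against 47.8% of all genes. Of these, 5 were at least 2-fold above it (13.3% of all genes), and 1 member was at least 2-fold below it (13.6%). At 72 h 22 were within 2-fold of the start. Only 8 of the 26 were above it, against 64.1% of all genes, and 18 were below it. At least 2-fold above it were 0 members (12.3% of all genes). At least 2-fold below it were 4 (numbers 6, 7, 15 and 19), against 3.69% of all genes. The other 506 lowered genes had medians of -1.53 at 48 h and -1.04 at 72 h in ABA buds. At 48 h 382 of these 506 lay at least 2-fold below the start with ABA, and at 72 h 265 did. The rule parted the members from these 506 largely by the ABA difference at 48 and 72 h. The contrast between them at those times thus follows in part from the choice. Between 48 and 72 h 22 of the 26 members became lower in ABA buds, while their controls became lower in all 26.

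**Figure D1:**
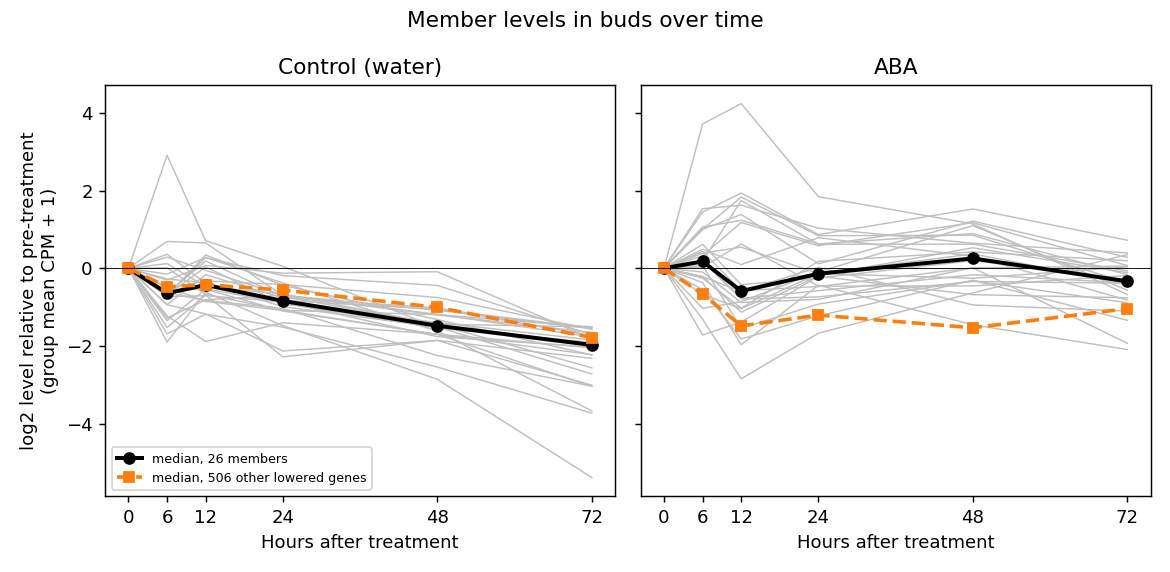
Level of each of the 26 members (grey lines) in control buds (left) and ABA buds (right) as log2 of group mean CPM plus 1 relative to pre-treatment buds, against hours after treatment. The black line is the median of the members, which ends at -1.97 in controls and -0.34 with ABA, and the dashed line is the median of the 506 other lowered genes, which ends at -1.78 and -1.04.

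Vitvi03g00568, the member with the highest start, showed the mildest control course of the 4 named. Pre-treatment buds had 174.0, 198 and 199 CPM in their 3 columns. Control means were 231.9, 183, 117, 89.3 and 64.0 CPM at 6, 12, 24, 48 and 72 h. ABA means were 257, 127, 137, 192 and 197 CPM. ABA buds were thus back at the starting level at 48 and 72 h, and every ABA column lay above every control column at all times but 12 h, where every ABA column lay below. At 72 h the ABA library held 3.08 times the control level (95% counting interval 2.72 to 3.49) and 1.03 times the pre-treatment level (0.951 to 1.13). Intervals here cover counting error only.

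Vitvi11g00231 was above its starting level with ABA from 6 to 48 h and near it at 72 h, while its control was far below it at 48 and 72 h. Its pre-treatment columns had 90.9, 98.3 and 100.4 CPM. Over the 5 times the control means were 86.8, 117, 74.0, 30.8 and 6.66 CPM. The ABA means were 121, 219.6, 145, 219.1 and 101 CPM. ABA columns lay above all control columns at each of the 5 times. The ABA to control ratio grew from 1.39 (1.24 to 1.56) at 6 h to 7.20 (6.27 to 8.30) at 48 h and 15.5 (11.0 to 22.5) at 72 h. At 72 h ABA buds held 1.05 times the pre-treatment level (0.935 to 1.18).

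Vitvi01g01979 had the deepest control decline of the members. Its pre-treatment columns had 98.8, 114 and 123 CPM. Water-sprayed buds had means of 29.3, 72.6, 39.6, 14.6 and 1.70 CPM in time order, the last from 9 counts. ABA buds had 118, 37.8, 58.6, 89.3 and 60.1 CPM. The control was low at 6 h and higher again at 12 h, while ABA buds were low at 12 h, so that ABA columns were all above the controls at 6, 24, 48 and 72 h and all below them at 12 h. At 72 h ABA buds held 54% of the starting level and control buds 1.5%.

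Vitvi12g02456 was below its start at every time with ABA as well as in controls, and at 12 h its ABA columns lay below all control columns. Its pre-treatment columns had 34.9, 39.7 and 39.9 CPM. In time order the controls had means of 11.1, 16.2, 12.7, 5.71 and 1.95 CPM. The ABA means were 29.3, 9.00, 27.9, 13.3 and 8.18 CPM. ABA buds at 72 h held 21% of the starting level, the lowest share among the members. The 72 h control columns had 0.516, 0.578 and 4.76 CPM, from 10 counts in all, and the ABA to control ratio there was 4.33 (2.13 to 9.71).

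**Figure D2:**
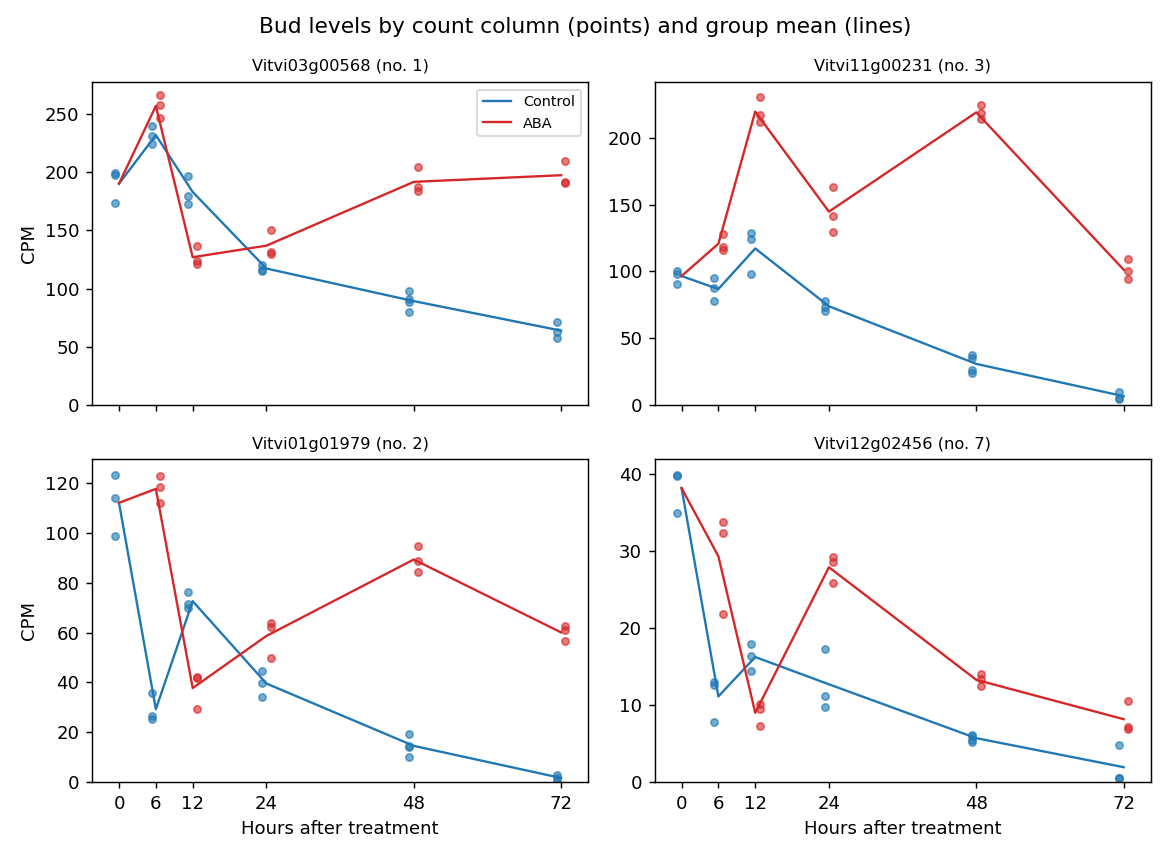
CPM of the 4 named members in buds against hours after treatment, with a point for each count column and a line through the group means, controls in blue and ABA in red. At 48 and 72 h the lines are apart in all 4 panels, and at 12 h the ABA points lie below the control points in 3 panels and above them for Vitvi11g00231.

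Counts set how well single members are known at 72 h. In the 72 h control, 10 of the 26 members had under 10 counts, and number 26 had 0 counts, against 16 counts before treatment. A count of 0 allows a level of up to 0.561 CPM (3 counts). By the rule all 26 were at least 2-fold higher with ABA at 48 and 72 h. Of all genes 43.8% were higher by any amount at 48 h and 58.7% at 72 h, 8.62% and 6.59% by at least 2-fold, and 11.6% and 5.19% were at least 2-fold lower. These times chose the members, so nothing is read from the counts. At 72 h the ABA difference was larger than at 48 h in 17 of the 26. It had a median of 1.496 at 48 h and 1.71 at 72 h, against -0.50 and 0.85 in the other 506 lowered genes. Of these 506, 489 were higher with ABA at 72 h. The ABA difference and the control decline at 72 h share the same control library, so a low value in it moves both, and the 48 h values share the 48 h control in the same way.

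The 6 and 12 h libraries took no part in choosing the members. At 6 h 24 of the 26 were higher with ABA, against 47.2% of all genes, and 9 were at least 2-fold higher, against 7.01%. None was 2-fold lower (4.22% of all genes). Members were thus mostly above control within hours of the spray, while the other lowered genes lay slightly below it. The median difference was 0.67, against -0.19 in the other lowered genes and -0.04 in all 15286. The counting interval lay above 1 for 18 members, below 1 for 1 and across 1 for 7. Such intervals were not made for all genes, so nothing is read from these counts. ABA columns were all above the control columns in 19 members and all below in 0, against 23.5% and 26.8% of all genes. The difference at 6 h compares single libraries and has no replicate check.

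At 12 h the members split. The ABA difference was above 0 in 14 members (36.5% of all genes) and below 0 in 12. It was at least 2-fold higher in 8 (9.53% of all genes) and at least 2-fold lower in 3 (18.2%). The median was 0.12, against -1.04 in the other lowered genes and -0.28 in all genes. It was -0.09 without count column 1 of each group, 0.20 without column 2, 0.07 without column 3 and 0.28 under TMM scaling, so its sign is not settled. The other lowered genes were thus well below control at the time when the members lay on both sides of it. Columns did not overlap in 10 members with ABA above (20.4% of all genes) and in 10 with ABA below (40.1%). Higher with ABA at 6 h and lower at 12 h were 11 members, and the share of all genes that turned so was not counted. The most abundant gene held 7.71% of the ABA counts at 12 h and 1.39% of the control counts, and with library sizes scaled by TMM the median of all genes moved from -0.28 to -0.08. With that scaling 15 members were above 0, 10 were at least 2-fold higher and 1 was at least 2-fold lower.

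The ends of that split were numbers 12 and 9. Number 12 started at 26.1, 26.7 and 33.7 CPM, reached 524, 577 and 584 CPM in ABA columns at 12 h, and had 37.4, 51.0 and 54.9 CPM in the controls of that time. Its controls had been at 216, 221 and 232 CPM at 6 h, so water-sprayed buds too had it above its start at 6 h. Number 9 had 2.45, 4.18 and 4.79 CPM with ABA at 12 h against 16.7, 19.4 and 25.1 CPM in controls, the largest deficit of a member at that time. At 72 h number 9 had 35.5, 46.5 and 47.1 CPM with ABA against 3.61, 5.21 and 8.93 CPM in controls, so its ABA difference turned from -2.16 to 2.67. In both members the ABA and control columns were apart at each of these times.

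At 24 h 25 of the 26 members were higher with ABA (40.3% of all genes), 10 at least 2-fold (6.37%) and 0 were at least 2-fold lower (8.58%), with a median of 0.84 against -0.72 in the other lowered genes. The rule capped this difference at 2, so it bounds the values from above. The counting interval lay above 1 in 19 members and across 1 in 7, with no share of all genes to set beside these counts. Columns were apart with ABA above in 19 (20.3% of all genes) and with ABA below in 0 (34.4%). Over the whole course 13 members were higher with ABA at all 5 times. The rule fixed the direction at the times after 24 h. The share of all genes higher at every time was not counted, so nothing is read from the 13.

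**Figure D3:**
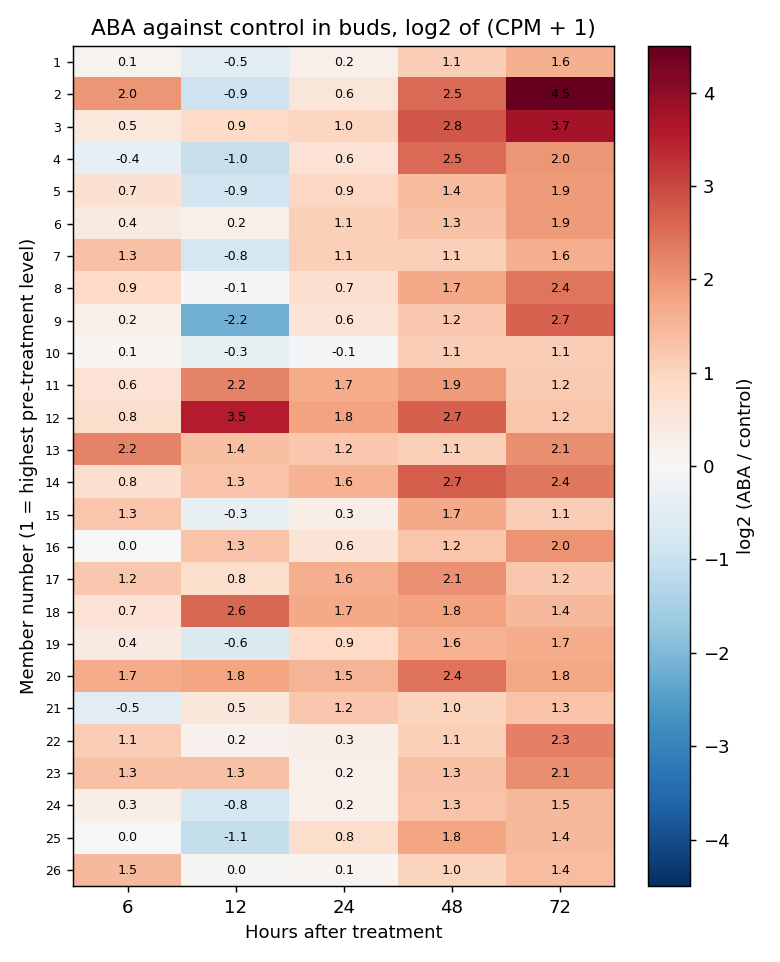
Log2 ratio of ABA to control group mean CPM plus 1 in buds for the 26 members (rows, numbered by falling starting level) at each time (columns), with red for higher with ABA and blue for lower. The 48 and 72 h columns, which the rule used, are red throughout, and the 12 h column holds 14 values above 0 and 12 below.

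The 6 and 12 h libraries allowed the only test in buds that is free of the rule. It compared ABA with control over both times with time as a block (edgeR's quasi-likelihood test, adjusted p under 0.05 over 15590 genes). Each gene had 1 residual degree of freedom for variation between the 2 times, so its p rests largely on a spread borrowed across genes. No replicate within a time stands behind it. Of the 24 members tested, 8 were higher with ABA and 0 were lower, where 10.7% of all genes tested were called higher and 4.92% lower. The 8 were numbers 11, 12, 13, 14, 17, 18, 20 and 23. The largest effect was in number 12, at 2.30 ± 0.47 (SE; edgeR adjusted p = 0.000103), and the next in number 20, at 2.05 ± 0.43 (edgeR adjusted p = 0.000197). Number 13 was higher by 1.95 ± 0.36 (edgeR adjusted p = 1.64e-05), with 73.2, 83.4 and 87.0 CPM in ABA columns against 14.7, 17.6 and 17.7 CPM at 6 h, and 80.3, 86.4 and 93.1 CPM against 30.4, 33.1 and 36.4 CPM at 12 h. In both of its times the ABA columns lay above all control columns. The count of 8 was 4 with DESeq2, where 874 of the 15590 genes were called higher, against 1669 by edgeR. It was 7 without count column 1 of each group, 3 without column 2 and 7 without column 3. Over all genes, 1280 of 14462, 950 of 14368 and 1539 of 14559 were then called higher.

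None of the 4 named members passed this test. Vitvi11g00231 was higher by 0.82 ± 0.36 (edgeR adjusted p = 0.120) and higher at both times. The values of Vitvi01g01979 were 0.65 ± 0.41 (edgeR adjusted p = 0.323), of Vitvi12g02456 0.45 ± 0.41 (edgeR adjusted p = 0.539) and of Vitvi03g00568 -0.06 ± 0.36 (edgeR adjusted p = 0.948). These 3 were higher with ABA at 6 h and lower at 12 h.

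Most members were barely present in leaves. Their mean over the 40 leaf libraries was under 1 CPM in 15 of the 26 (57.7%), which compares with 30.0% of the other 506 lowered genes and 12.8% of all 15286. Number 9 had no leaf count at all. The leaf limit of the rule can be met by absence, since a gene under 1 CPM has little room to differ once 1 CPM is added. At the other end, numbers 11, 12, 16 and 18 averaged over 30 CPM in leaves, with 149, 36.1, 141 and 32.4 CPM. Among the 26 members the leaf level went with the bud difference at 12 h (Spearman 0.58). At the other times the coefficient was -0.0017, 0.36, 0.23 and -0.15 (6, 24, 48 and 72 h). The 7 members at 2 CPM or more in leaves had a median bud difference of 1.29 at 12 h, with 5 above 0, and the 4 at 1 to 2 CPM had a median of 1.33, with 3 above 0. The 15 under 1 CPM had a median of -0.52, with 9 below 0. Of all 15286 genes 36.5% were above 0 at 12 h. This split was chosen after the values were seen, and members share their libraries. Neither the coefficient nor the split was computed over all genes, so neither can be called particular to the members.

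**Figure D4:**
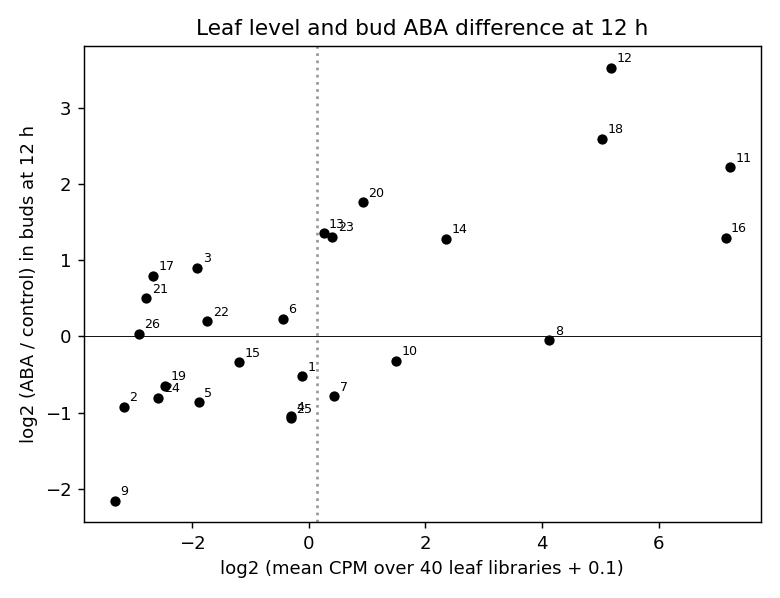
Bud log2 ratio of ABA to control at 12 h against the log2 mean CPM over 40 leaf libraries (0.1 CPM added), with a numbered point for each of the 26 members and a dotted line at 1 CPM. The members above 30 CPM in leaves (11, 12, 16 and 18) all lie above 0, and 9 of the 15 left of the line lie below it.

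In leaves 6 members (numbers 8, 11, 12, 14, 16 and 18) had enough counts to be tested, and none was called with ABA at 2, 4 or 48 h by edgeR. Over all 13378 genes tested, the shares called higher and lower were 0.0897% and 0.00747% at 2 h, 0.882% and 0.673% at 4 h, and 1.56% and 0.65% at 48 h. At an unadjusted p under 0.05, 1 member was lower at 2 h, 1 was higher at 4 h and 0 passed at 48 h. The share of all genes under that limit was not counted, so nothing is read from these counts. By adjusted p DESeq2 also called 0. Number 11 was the member lower at 2 h, with 129.4, 130.01, 130.9 and 138 CPM in ABA leaves and 154, 158, 192 and 199 CPM in controls, a log2 difference of -0.37 ± 0.18 (edgeR adjusted p = 0.646). Its groups did not overlap. Number 8 was the member higher at 4 h, with 12.3, 20.2, 20.9 and 31.9 CPM in ABA leaves and 3.93, 7.09, 11.4 and 19.6 CPM in controls, a log2 difference of 1.03 ± 0.50 (edgeR adjusted p = 0.325). Its groups overlapped. Number 18, called higher with ABA in buds, had 41.5, 47.3, 49.2 and 50.0 CPM in ABA leaves at 2 h against 26.5, 33.1, 36.1 and 40.9 CPM in controls. The groups did not overlap here either, and the difference of 0.52 ± 0.32 did not pass (edgeR adjusted p = 0.714). How many of all genes had leaf groups apart was not counted, so nothing is read from overlap in leaves. Whether the leaf ABA effect differed between 2, 4 and 48 h was tested too, and no member was called (edgeR, lowest member adjusted p = 0.550), as against 3 of all 13378 genes.

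In control leaves, sprayed without ABA, 2 of the 6 members differed from pre-treatment at 4 h. Number 14 was higher than before treatment, with 0.949, 7.93, 17.2 and 32.7 CPM in 4 h controls and 0 to 9.42 CPM (median 1.07) in the 8 pre-treatment leaves, a log2 difference of 2.39 ± 0.77 (edgeR adjusted p = 0.0296; 7.27% of all genes were called higher). Number 11 was lower, with 99.2, 105, 125 and 145 CPM against 166 to 237 CPM (median 184), a difference of -0.73 ± 0.16 (edgeR adjusted p = 0.00107; 7.56% called lower). The groups of number 11 did not overlap, while those of number 14 did. The call of number 14 was lost with DESeq2, with the replicate number as a block, and when replicate 1, 2 or 4 was left out, while that of number 11 was kept in each. No member was called by edgeR in controls at 2 h (5.61% of all genes higher, 5.34% lower) or at 48 h (0.0673% and 0.209%). At an unadjusted p under 0.05, 0 members differed at 2 h and 1 was lower at 48 h, and DESeq2 called 0 and 1. The share of all genes under that limit was not counted. Over all genes DESeq2 called more than edgeR at 2 h and at 48 h, both higher and lower. Nothing is therefore read from these member counts. Leaving out 4 leaf libraries run on another flow cell gave 1 call by edgeR at 48 h, where 39 of 13762 genes were called higher and 55 lower.

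**Figure D5:**
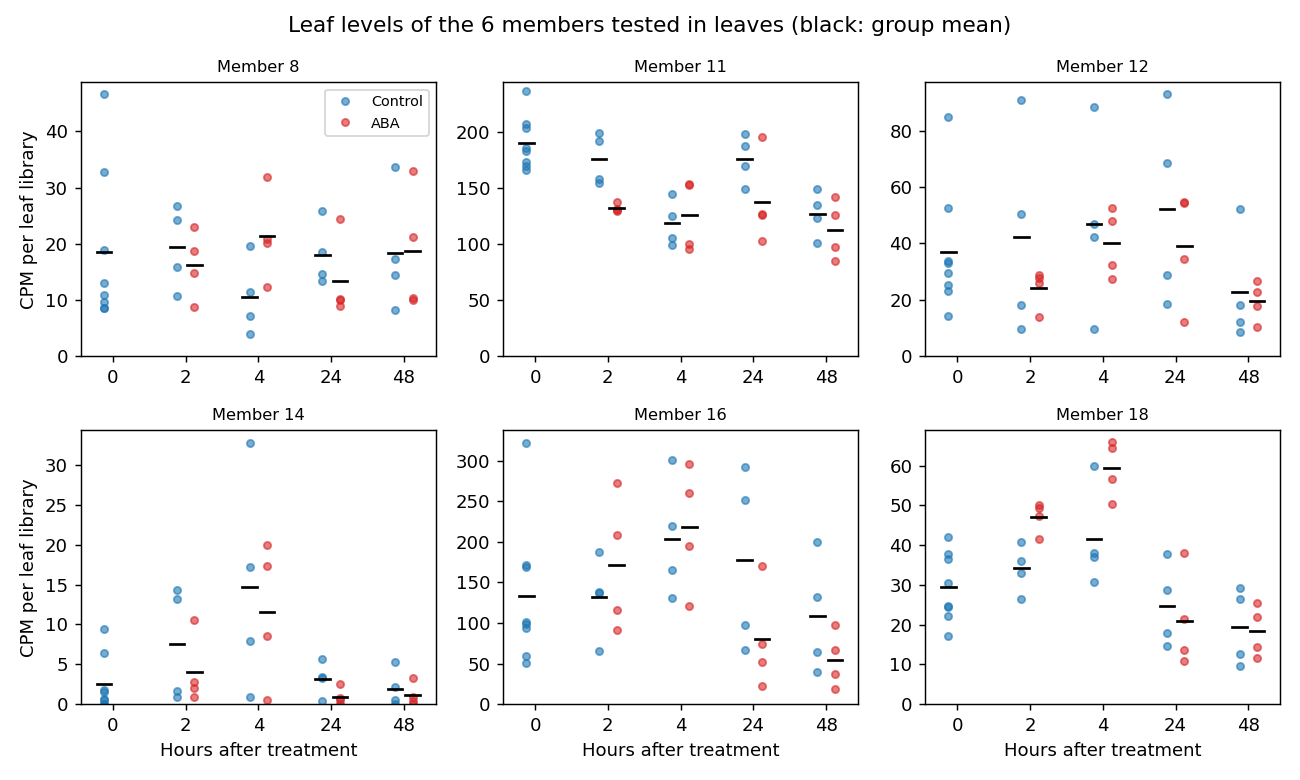
CPM of the 6 members tested in leaves, with a point for each leaf library, blue for controls and red for ABA, a black bar for the group mean, and hours after treatment below. Control and ABA points overlap at most times, and the group means of number 11 at 4 and 48 h lie below the pre-treatment mean in both treatments.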

How the data were processed

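Transcript 3′ ends were sequenced from buds and leaves with the QuantSeq kit, per the labels' protocols. The deposited values are raw counts per gene in 2 tables with the same 42413 identifiers. FastQC, STAR and DESeq2 appear in the submitters' processing notes without versions or roles. The build, annotation and counter are not given in the sources used, so close paralogs and antisense genes are uncertain. Of the identifiers, 0 matched the gene table at hand, so no names, positions or sequences are given and lists by gene name could not be formed. The 72 h buds carry that time in their titles, while their description codes read otherwise. All 74 columns were used.

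The members and tests were chosen with earlier results of these data known. The named members are those with the highest start, the largest smaller value of the 48 and 72 h ABA differences, and the lowest 72 h controls, each at 5 CPM or more before treatment. Bud columns of a group, compared by chi-square over genes with 20 or more counts, were added up to 1 library. Medians and counts were set beside those of the 15286 genes able to reach the control limit.

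Tests used edgeR 4.0.16 (R 4.3.3) quasi-likelihood fits with TMM scaling, filterByExpr (minimum count 10) and Benjamini-Hochberg adjustment over all genes, in leaves with 1 mean for each of 9 groups. The standard error is the log2 fold change over the square root of F. In buds 2 ABA and 2 control libraries leave 1 residual degree of freedom, with the spread borrowed across genes. The labels name no vine for a leaf library, so leaf p-values cover the spread between libraries, which may be technical. Alternatives were DESeq2 1.42.0, RLE scaling, no filter, other pseudocounts, the flow cell, a replicate block and leaving out each replicate. Counting intervals are exact binomial at 95%.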

Additional observations from a re-analysis of the deposited data

Results flagged for a closer look

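In 3 of the 4 named members the ABA difference in buds at 12 h ran against that at the other 4 times, with every ABA column below every control column at 12 h and above it at 6, 24, 48 and 72 h. The log2 difference at 12 h was -0.52 for Vitvi03g00568, -0.92 for Vitvi01g01979 and -0.79 for Vitvi12g02456. The difference between times was not tested, since each time has 1 library per treatment. At 12 h 40.1% of all 15286 genes had every ABA column below every control column.

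Among groups of 4 or more, 66 (leaf groups of the 6 members tested there and groups of the 4 named members, each with at least 10 counts) were looked at for a value far from the others. Of these 2 had one, where chance gives about 1 in 20. Number 16 had 322 CPM in a pre-treatment leaf library, against 50.7 to 172 CPM in the other 7. Number 8 had 24.4 CPM in replicate 1 of ABA leaves at 24 h, against 8.97 to 10.2 CPM in the other 3, and that library is on the second flow cell.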

How the results depend on the processing

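The list of members moved most with the pseudocount, from 26 to 7 (7 shared) with 5 CPM added and to 45 (22 shared) with 0.5 CPM. It held 33 genes under TMM scaling (26 shared), 24 from summed columns, 26 to 32 when a bud column was left out (19 to 21 shared) and 25 to 27 when a leaf replicate was. The median ABA difference at 6 h was 0.56 with 5 CPM added, and that at 12 h ran from -0.09 (without column 1) to 0.20 when a column was left out. The bud test over 6 and 12 h called 4 members with DESeq2 and 3 to 7 when a column was left out. Calls of higher genes over all genes also fell, from 1669 to 874 with DESeq2 and to 950 without column 2. A fit over all 5 times called 12 members, where 1542 of 15860 genes were called higher. The rule used most of those times, so nothing is read from the 12. In leaves, the 4 h controls had 1 member called in place of 2 with DESeq2 and with the replicate block, and 1 to 2 when a replicate was left out. The 48 h controls had 1 in place of 0 with DESeq2 and without the second flow cell. The cause of these moves was not tested. With the replicate block the other leaf comparisons called 0 members, as without it. Same-numbered leaf libraries of ABA and control correlated at -0.22 to 0.16 in 16 pairs, 2 of them over 0.1, so the numbers were not taken to pair the samples. Of the alternatives run, 87 left the value within a set range and 12 did not. That range took no account of sign, so the 12 h median of -0.09 without column 1 is among the 87. Many of the 87 are leaf comparisons where 0 calls stayed 0. The scaling of members' directions was added after seeing the data and moved members above 0 from 25 to 26 at 24 h. Low counts limit single members, 10 of which had under 10 counts in the 72 h control.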
